A study of Drosophila montana and Drosophila virilis with 24 samples.

Results

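This account compares 2 kinds of cold in the northern fly Drosophila montana: 6 days at 5°C, a long cold acclimation, and 1 h at 0°C, a short cold hardening. The compared arrays were chosen by their titles and number 6 of the 24 arrays of the study, 3 for each treatment. The study hybridised whole-body RNA of D. montana and D. virilis to a custom array of 218 named genes, after cold treatments and in controls. Its remaining D. montana groups were controls and flies recovering from 16 h at -6°C, and the D. virilis groups were acclimated, hardened and control flies. Each array carried RNA from a separate pool of 10 mature females, 20 days old.

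Acclimated flies had spent 14 days in control conditions before their 6 days at 5°C. Hardened flies had spent 20 days in control conditions before their 1 h at 0°C. Control flies stayed at 19°C. All groups shared a light regime of 22 h of light and 2 h of darkness and were collected within 5 to 6 h from lights on. No strain is named in the sources used here. The 2 treatments differ in both temperature and duration, so that these cannot be told apart, and the labels list no recovery at a warmer temperature for either.

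Insects that are chilled briefly or for days can become more tolerant of later cold, and these states are called rapid cold hardening and cold acclimation. Processes tied to cold tolerance in flies include protein folding by heat shock proteins, the unsaturation of membrane lipids by fatty acid desaturases, sugar metabolism and ion balance across membranes. Temperature also acts on the circadian clock, a feedback loop in which Clk and cyc activate per, tim, vri and cwo, whose products in turn repress that activity or Clk itself.

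A level is given here as the log2 signal of a gene, averaged over its probes, minus the 75th percentile of its own array, so that 1 unit is a doubling. Levels were compared between arrays for the same gene and not between genes. Differences are acclimated minus hardened, with their standard error, and were tested with limma at a Benjamini-Hochberg adjusted p of 0.05 over the 213 genes with a probe above background. Of the spots on an array, 76.6% to 80.7% were well above background on acclimated arrays, 78.9% to 83.1% on hardened arrays and 81.2% to 82.6% on control arrays. The 75th percentile of the signal was 658.0 to 750.8 units on acclimated arrays, 661.2 to 881.1 units on hardened arrays and 698.5 to 839.2 units on control arrays. The median SD of a gene over 3 arrays was 0.15 in acclimated flies, 0.16 in hardened flies and 0.11 in controls. Marker lists for ovary (23 genes), fat body and yolk (12 genes) and the male germline (19 genes) had 0 members on the array, so the share of these tissues in the RNA was not tested. The eye's main opsin gene ninaE and the muscle myosin gene Mhc were above background on the compared arrays. With 3 arrays a group, precision is set by their number.

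Of 213 genes, 53 passed, which is 24.9% of those tested. The acclimated flies were higher for 24 genes (11.3%) and lower for 29 (13.6%). At an unadjusted p of 0.05 there were 81 genes. More than 2-fold differences were found for 4 of the higher genes, namely hsr-omega, vri, ey and na, and for 4 of the lower genes, namely desat1, desat2, Pgm and CG12030. The median size of the difference was 0.59 log2 units among the 53 genes, beside 0.30 among all 213. All 53 pointed one way on each of the 3 slides, which follows in large part from their selection on these same arrays. The acclimated and hardened arrays did not overlap for 50 of the 53, and for 88 of all 213 genes tested (41.3%). With scaling on the spike-in probes in place of the 75th percentile, 25 of the 53 calls were lost, those of cpo and of every lower gene except desat1, desat2, Pgm, CG12030 and cac. With normexp background correction 48 were lost, all but hsr-omega, Hsp68, stv, desat1 and imd, and 17 of the 53 differences moved by more than 1.5 times. Among these, ey and na stood at 0.54 and 0.24, so their more than 2-fold differences depend on the background correction. With both probe orientations averaged, in place of the brighter probe of each pair, 18 calls were lost and 14 differences moved by more than 1.5 times. The ranked plot of all genes shows a few large differences at either end and a broad middle near 0, where the median gene lay at -0.06.

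**Figure D1:**
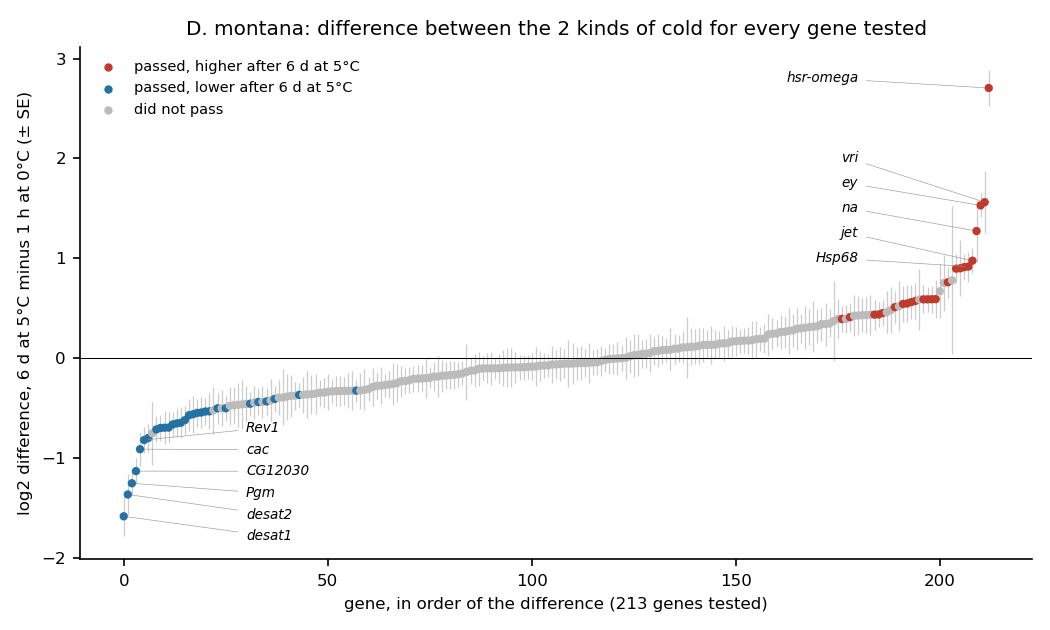
Each point is 1 of the 213 genes tested in D. montana, placed in order of its log2 difference between 6 days at 5°C and 1 h at 0°C (vertical axis, bars are ± SE from limma), with genes past the adjusted p of 0.05 in red where higher and in blue where lower after 6 days at 5°C. The highest is hsr-omega at 2.70 and the lowest desat1 at -1.59.

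Relative to the 19°C controls, which both treatments share, the acclimated flies differed in 57 genes (26.8% of those tested), with 21 higher (9.86%) and 36 lower (16.9%). The hardened flies differed in 1 gene (0 higher and 1 lower, 0.469%), with 14 at an unadjusted p of 0.05 in limma. That gene was Eip71CD, a methionine sulfoxide reductase. Its level was -0.15, 1.35 and 0.39 in acclimated flies, -0.87, 0.25 and 1.1 in hardened flies, and 2.24, 2.67 and 2.07 in controls. Acclimated and hardened flies overlapped, and both lay below the controls. Its log2 difference from the controls was -1.80 after acclimation (adjusted p = 0.00331) and -2.17 after hardening (adjusted p = 0.0128). For 49 of the 53 genes that differed between acclimated and hardened flies, the control mean was nearer to the hardened than to the acclimated mean, as it was for 140 of all 213 genes. The control mean lay between the 2 treatments for 14 of the 24 higher and 19 of the 29 lower genes. It lay beyond the hardened mean, below both treatments, for 9 of the higher genes, and above both for 10 of the lower genes. For cwo, among the higher genes, it lay above both.

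**Figure D2:**
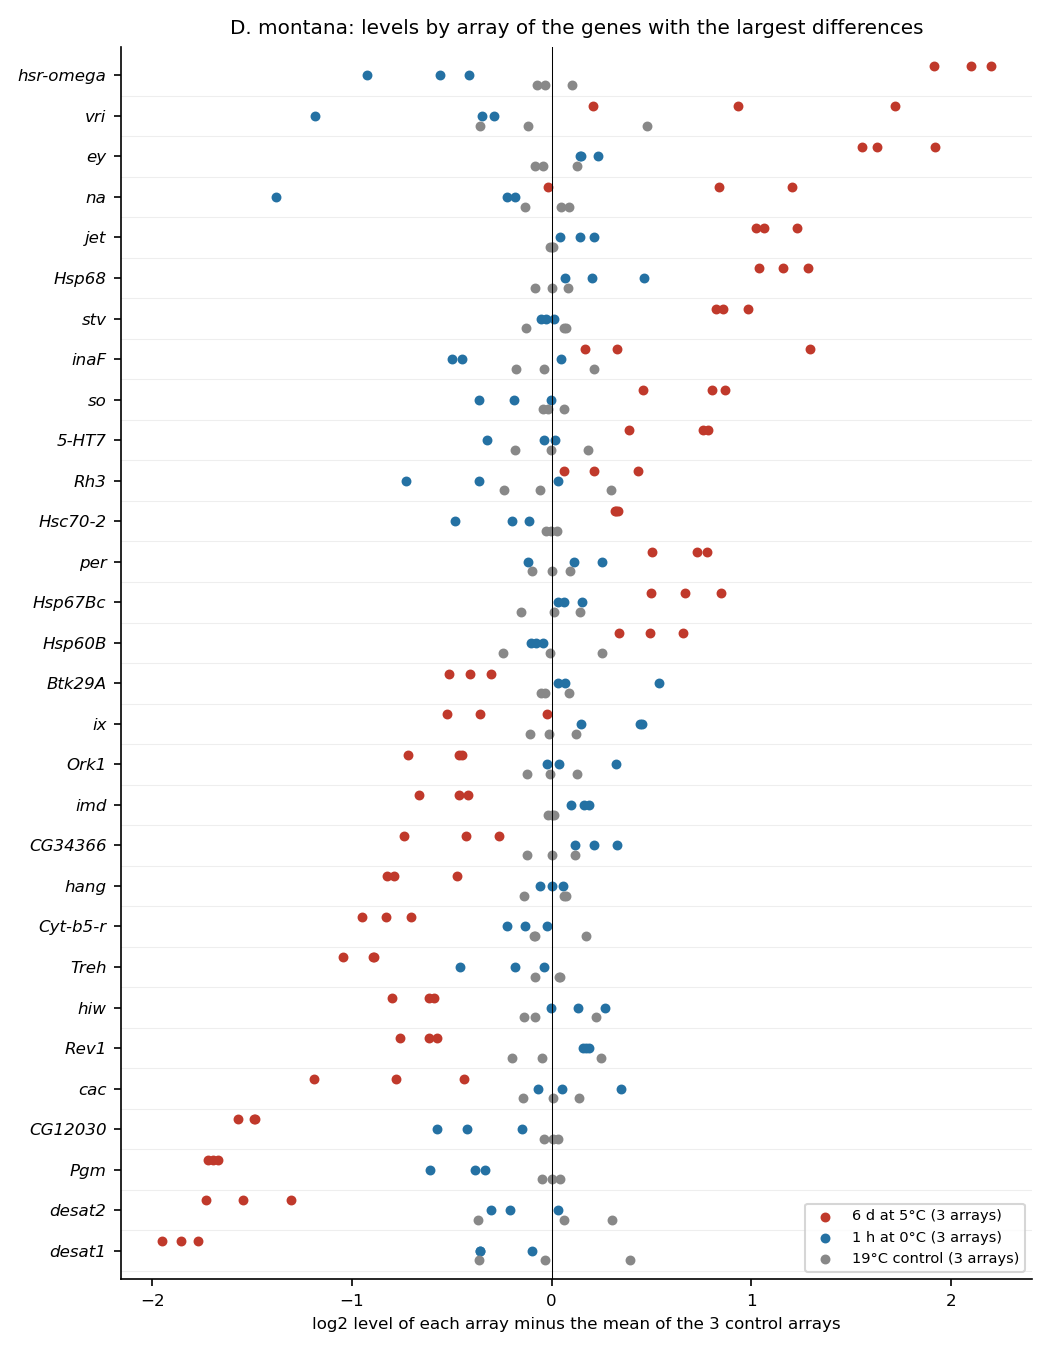
Levels of the 15 genes with the largest rise and the 15 with the largest fall in acclimated against hardened D. montana, among genes whose arrays did not overlap. Each point is 1 array (horizontal axis: log2 level minus the mean of the 3 control arrays), with acclimated flies in red, hardened flies in blue and controls in grey; for hsr-omega the 3 acclimated arrays lie furthest to the right, and for desat1 furthest to the left.

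In the list of inducible chaperones and heat shock RNA, 3 of 6 measured members were higher after 6 days at 5°C and 0 lower. That is 50% of the list, beside 24.9% called over all genes. The 3 were hsr-omega, Hsp68 and stv, and the median difference of the list was 0.63, beside -0.06 over all genes. The long non-coding RNA hsr-omega organises nuclear speckles that hold RNA-binding proteins after stress. Its level was 4.81, 4.52 and 4.71 on the acclimated arrays, against 1.68, 2.05 and 2.19 on the hardened arrays and 2.58, 2.71 and 2.54 on the control arrays. All acclimated arrays were far above the others, and all hardened arrays were below all controls. The difference was 2.70 ± 0.18, a 6.52-fold higher signal (adjusted p = 1.27e-08). Against the controls, hsr-omega rose by 2.07 after acclimation (adjusted p = 1.63e-07), and the value after hardening was -0.63 (adjusted p = 0.136).

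Hsp68, a stress-inducible member of the Hsp70 family, had levels of 2.50, 2.62 and 2.75 in acclimated flies, against 1.93, 1.66 and 1.53 in hardened flies and 1.54, 1.46 and 1.38 in controls. No acclimated array overlapped either of the other groups, while the hardened arrays began within the range of the controls. It was 1.89-fold higher in acclimated than in hardened flies (0.92 ± 0.15, adjusted p = 0.000305). The gene stv encodes a BAG-domain co-chaperone of Hsp70. Its levels were 0.08, -0.08 and -0.05 in acclimated flies, against -0.95, -0.93 and -0.89 in hardened flies and -0.84, -1.03 and -0.83 in controls. Hardened and control arrays overlapped, and the acclimated arrays were apart from both (0.91 ± 0.13, adjusted p = 0.000108). The members that did not pass were the Hsp40 gene DnaJ-1 at 0.35, the Hsp70/Hsp90 organiser Hop at 0.25 and the heat shock factor gene Hsf at -0.14.

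Among 5 small heat shock protein genes, 1 rose and 1 fell, a share of 40% beside 24.9% over all genes. Hsp67Bc was 0.59 ± 0.14 higher (adjusted p = 0.00569), with levels of 2.68, 2.33 and 2.50 in acclimated flies, against 1.87, 1.99 and 1.90 in hardened flies. The arrays did not overlap, but the gene rests on 2 probes that point opposite ways, at 1.85 and -0.68. Hsp26 was 0.50 ± 0.15 lower in acclimated flies (log2 difference -0.50, adjusted p = 0.0279) on its 1 probe, with levels of 8.27, 8.36 and 8.53 against 8.78, 8.96 and 8.93 in hardened flies. Its groups did not overlap, yet its call was lost without 4 of the 6 arrays left out singly, all but hardened replicate 1 and acclimated replicate 3 (differences -0.49 to -0.44, adjusted p up to 0.0978), and with scaling on spike-in probes (-0.25, adjusted p = 0.547). Hsp23 had -0.46, l(2)efl 0.34 and Hsp20 0.29, and these did not pass.

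The list of chaperones that are expressed without stress or serve organelles held 13 measured genes, among them the kinase gene PEK. In it 3 genes were higher and 0 lower, a share of 23.1% beside 24.9% over all genes. They were Hsc70-2, an Hsp70 cognate (0.59 ± 0.13, adjusted p = 0.0039), Hsp60B, of the mitochondrial chaperonin family (0.57 ± 0.18, adjusted p = 0.0329), and CG7182 (0.44 ± 0.12, adjusted p = 0.0161). Hsc70-2 lay at -1.0, -0.99 and -0.98 in acclimated flies, against -1.80, -1.43 and -1.51 in hardened flies. These groups were apart, while 1 of its 6 probes pointed the other way, at -0.18. Its call was lost with both probe orientations averaged (0.17, adjusted p = 0.326). The call of Hsp60B, which rests on 1 probe, was lost without any 1 of 5 arrays, all but acclimated replicate 2 (differences 0.49 to 0.59, adjusted p up to 0.101). That of CG7182 was lost without acclimated replicate 3 (0.35, adjusted p = 0.0868). The abundant Hsp90 gene Hsp83 had levels of 4.04, 4.23 and 4.32 in acclimated flies, against 4.30, 4.25 and 4.22 in hardened flies, which overlap. Its difference of -0.06 ± 0.20 (adjusted p = 0.836) has no settled sign, since it was 0.19 with scaling on spike-in probes and 0.07 with quantile normalization.

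Fatty acid desaturases and their cytochrome b5 partners were lower in acclimated flies for 3 of 8 measured genes and higher for 0. That is 37.5%, beside 24.9% called over all genes. The list's median was -0.26, and -0.01 with scaling on spike-in probes, under which 2 genes passed, both lower. Desat1 encodes the main delta-9 desaturase of flies, which makes the monounsaturated fatty acids of membranes and of hydrocarbon pheromones. Its levels were 5.35, 5.44 and 5.26 in acclimated flies, against 6.85, 7.11 and 6.85 in hardened flies and 6.85, 7.18 and 7.60 in controls. The hardened arrays overlapped the controls, and every acclimated array was more than 1 unit below every other. The signal was 3.00-fold lower (-1.59 ± 0.20, adjusted p = 1.94e-05). With both probe orientations averaged the difference was -0.95 for desat1 and -0.85 for desat2, described next, and both calls were kept.

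Desat2, a second desaturase best known for cuticular hydrocarbons in D. melanogaster, had levels of 3.56, 3.98 and 3.74 in acclimated flies, against 4.98, 5.32 and 5.08 in hardened flies and 4.92, 5.35 and 5.59 in controls. This repeats the pattern of desat1, with hardened and control arrays intermingled (-1.37 ± 0.21, 2.58-fold lower, adjusted p = 0.00016). The 2 genes are related in sequence, and whether their probes share signal was not tested. Cyt-b5-r, a cytochrome b5-related gene, had levels of 4.34, 4.59 and 4.46 against 5.07, 5.27 and 5.16 in hardened flies. Its groups did not overlap (-0.70 ± 0.13, adjusted p = 0.00107), and its call was lost with scaling on spike-in probes (-0.45, adjusted p = 0.189). The other 5 members ran from -0.27 for CG9743 to 0.17 for CG8630 and did not pass.

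Enzymes of carbohydrate metabolism were lower in acclimated flies for 5 of 6 measured genes, with 0 higher and a list median of -0.57. The share called was 83.3%, beside 24.9% over all genes. Phosphoglucomutase, encoded by Pgm, interconverts glucose 1-phosphate and glucose 6-phosphate at the entry to glycogen and trehalose synthesis. Its levels were 3.12, 3.17 and 3.15 in acclimated flies, against 4.23, 4.51 and 4.46 in hardened flies and 4.84, 4.79 and 4.88 in controls. The 3 groups were fully apart, with hardened flies between. Pgm was 2.39-fold lower in acclimated than in hardened flies (-1.25 ± 0.12, adjusted p = 1.01e-06). Of its 4 probes, 3 lay between -1.75 and -1.56 and the remaining one at -0.04.

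Treh encodes trehalase, which splits trehalose, the main blood sugar of insects, into glucose. Its levels were 0.36, 0.51 and 0.51 in acclimated flies, against 0.94, 1.22 and 1.36 in hardened flies and 1.45, 1.32 and 1.44 in controls. Acclimated arrays were below all the others (-0.72 ± 0.13, adjusted p = 0.000804). The glycolytic genes Gapdh1 (-0.43 ± 0.13), Gapdh2 (-0.41 ± 0.13) and Tpi (-0.37 ± 0.12) were lower by smaller amounts, with adjusted p of 0.0279, 0.0317 and 0.0317. Gapdh1 and Gapdh2 are related genes, and whether their probes share signal was not tested. With both probe orientations averaged their values were -0.11 and -0.09, and neither passed.

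With scaling on the spike-in probes, 1 of the 5 calls in carbohydrate metabolism, that of Pgm, remained, and Treh stood at -0.47 (adjusted p = 0.181). The calls of Gapdh1 and Gapdh2 were lost without any 1 of 5 arrays, all but hardened replicate 3 (Gapdh1 -0.45 to -0.39 and Gapdh2 -0.42 to -0.37), and that of Tpi without 4, all but replicate 1 of each treatment (-0.37 to -0.33), with adjusted p up to 0.11. Adh, alcohol dehydrogenase, varied widely. It had 5.31, 3.65 and 4.07 in acclimated flies, against 4.58, 5.23 and 5.48 in hardened flies and 5.97, 5.95 and 6.27 in controls. Acclimated and hardened arrays overlapped, and the difference of -0.75 ± 0.32 did not pass (adjusted p = 0.092).

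**Figure D3:**
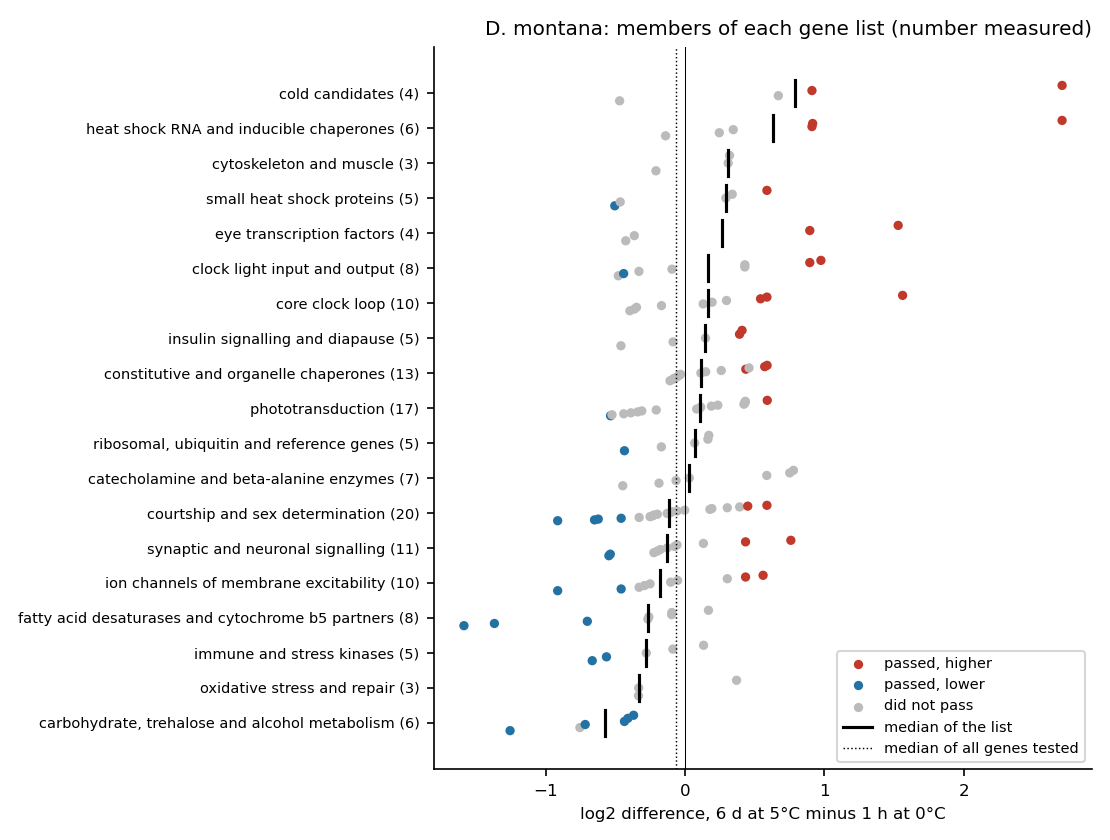
Log2 difference between acclimated and hardened D. montana (horizontal axis) for each measured member of the 19 gene lists with at least 3 measured genes; points are genes, coloured by whether they passed, bars are the list medians and the dotted line is the median of all genes tested (-0.06). The carbohydrate list has the lowest median at -0.57 and the cold candidates the highest at 0.79; a gene can stand in several lists.

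The clock genes of the core loop were higher for 3 of 10 members, vri, per and cwo, and lower for 0. The list median was 0.16, and calls made up 30% of the list, beside 24.9% over all genes. With scaling on spike-in probes 3 were higher, with quantile normalization or median scaling 2, and with normexp 0 passed in limma. The gene vri encodes a bZIP repressor of Clk. Its levels were 0.03, -0.76 and -1.48 in acclimated flies, against -2.87, -1.98 and -2.04 in hardened flies and -1.21, -2.05 and -1.81 in controls. Acclimated and hardened arrays did not overlap, but acclimated and control arrays did, and the difference by slide ran from 2.90 on slide 1 through 1.22 to 0.56 on slide 3. The mean was 1.56 ± 0.31 (2.95-fold higher, adjusted p = 0.00165). For per, the clock's founding repressor, levels were -3.24, -3.01 and -2.96 in acclimated flies, against -3.86, -3.49 and -3.63 in hardened flies and -3.74, -3.83 and -3.64 in controls. The acclimated arrays were above all the others (0.59 ± 0.13, adjusted p = 0.00279), with 7 of the 9 probes of per pointing up and 2 down, from -0.12 to 1.08.

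The transcriptional repressor cwo had -2.59, -2.64 and -2.61 in acclimated flies, against -3.24, -3.40 and -2.83 in hardened flies and -2.75, -2.41 and -2.22 in controls. In this gene the acclimated arrays lay within the range of the controls, and every hardened array lay below both groups. The difference was 0.54 ± 0.18 (adjusted p = 0.0406), and the value of hardened minus control was -0.70 (adjusted p = 0.136). The call of cwo was lost without any 1 of 5 arrays, all but hardened replicate 3 (0.42 to 0.55, adjusted p up to 0.17). The gene tim, whose protein pairs with that of per, had -5.42, -5.19 and -5.28 in acclimated flies, against -5.08, -4.95 and -4.82 in hardened flies. The groups were apart and all 14 probes pointed down, but the difference of -0.35 ± 0.13 did not pass (adjusted p = 0.0638). Clk at 0.30 and cyc at 0.19 did not pass either.

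In the list of light input to the clock and its output, 2 of 8 genes were higher, jet and the eye gene so, and 1 was lower, cry, with a median of 0.17. Calls made up 37.5% of the list, beside 24.9% over all genes. With scaling on spike-in probes 4 were higher and 0 lower, with a median of 0.42. The F-box gene jet takes part in the breakdown of the tim protein in light. It had 0.14, -0.07 and -0.02 in acclimated flies, against -0.88, -0.95 and -1.05 in hardened flies and -1.08, -1.09 and -1.10 in controls. Acclimated arrays were well apart, and hardened arrays were just above the controls (0.97 ± 0.13, adjusted p = 3.74e-05). The blue-light photoreceptor gene cry was lower, with -0.92, -0.76 and -0.74 in acclimated flies, against -0.59, -0.24 and -0.26 in hardened flies and 0.07, 0.06 and -0.05 in controls. The 3 groups did not overlap (-0.44 ± 0.14, adjusted p = 0.0279). The call of cry was lost without any 1 of 5 arrays, all but hardened replicate 1 (-0.47 to -0.38, adjusted p up to 0.11), and with scaling on spike-in probes (-0.19, adjusted p = 0.647). The clock kinase and phosphatase genes sgg at -0.40 and tws at -0.48 did not pass.

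Eye transcription factors were higher for 2 of 4 genes, ey and so, and lower for 0, beside 24.9% called over all genes. Both belong to the network that specifies the fly eye, and ey is the fly Pax6. Levels of ey were -3.65, -3.95 and -4.02 in acclimated flies, against -5.43, -5.34 and -5.43 in hardened flies and -5.62, -5.66 and -5.45 in controls. Acclimated arrays were more than 1 unit above all the others (1.53 ± 0.12, 2.89-fold, adjusted p = 9.73e-08). With normexp background correction the difference of ey was 0.54 and that of so 0.56, and neither passed (adjusted p = 0.982 for ey). For so, levels were -2.67, -2.26 and -2.33 in acclimated flies, against -3.49, -3.32 and -3.13 in hardened flies and -3.15, -3.17 and -3.07 in controls (0.90 ± 0.14, adjusted p = 0.00026), again with no overlap. In whole-body RNA, a change in the number of cells that express a gene and a change in RNA per cell cannot be told apart. The eye factors ato at -0.36 and gl at -0.42 did not pass.

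Of 17 phototransduction genes, 1 was higher and 1 lower, a share of 11.8% beside 24.9% over all genes, with a median of 0.11. With scaling on spike-in probes 4 were higher and 0 lower, with a median of 0.36. The ultraviolet opsin gene Rh3 had 0.81, 0.96 and 1.18 in acclimated flies, against 0.02, 0.39 and 0.78 in hardened flies (0.59 ± 0.19, adjusted p = 0.0317). The arrays were close to touching, and acclimated arrays overlapped the controls at 0.69, 1.05 and 0.51. Arr2, the major arrestin that ends the light response, had 2.14, 2.03 and 2.01, against 2.25, 2.60 and 2.92 in hardened flies (-0.53 ± 0.18, adjusted p = 0.0406). The call of Rh3 was lost without any 1 of 4 arrays, all but hardened replicate 3 and acclimated replicate 1 (0.40 to 0.60, adjusted p up to 0.14), and that of Arr2 without 5, all but hardened replicate 1 (-0.57 to -0.37, adjusted p up to 0.169). Outside the list, inaF, which is needed for the TRP channel of photoreceptors, had -2.58, -3.71 and -3.55 in acclimated flies, against -4.38, -4.33 and -3.83 in hardened flies (0.90 ± 0.28, adjusted p = 0.029). Its call was lost without acclimated replicate 1, the high array, or without hardened replicate 1 or 2 (0.55 to 0.82, adjusted p up to 0.132). The main opsin gene ninaE at 0.43 and the phospholipase gene norpA at 0.43 did not pass.

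The list for membrane excitability, which holds ion channels and genes that act with them, gave 2 higher and 2 lower of 10. These calls made up 40% of the list, beside 24.9% over all genes. Of the 4, 1 channel gene was higher and 1 lower. The potassium channel gene Sh (0.56 ± 0.17, adjusted p = 0.0256) and the dynamin gene shi (0.43 ± 0.15, adjusted p = 0.0429) were higher. The calcium channel gene cac (-0.91 ± 0.17, adjusted p = 0.00103) and mle, an RNA helicase that affects sodium channel transcripts (-0.46 ± 0.12, adjusted p = 0.0112), were lower. Levels of cac were -4.13, -3.72 and -3.38 in acclimated flies, against -2.60, -2.89 and -3.01 in hardened flies and -2.94, -2.81 and -3.09 in controls. Hardened and control arrays overlapped, and all acclimated arrays were below them. The difference of cac was -0.19 with no filter on dim probes (adjusted p = 0.286) and -0.49 with normexp (adjusted p = 0.959), and its call was lost under both. The call of Sh was lost without replicate 1 of either treatment (0.38 to 0.41, adjusted p up to 0.107), that of mle without hardened replicate 1 (-0.38, adjusted p = 0.054), and that of shi without any 1 of 5 arrays, all but hardened replicate 1 (0.39 to 0.46, adjusted p up to 0.122).

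Further channel genes stood outside that list. The sodium leak channel gene na had -6.14, -5.29 and -4.92 in acclimated flies, against -7.51, -6.31 and -6.35 in hardened flies and -6.26, -6.08 and -6.04 in controls. Acclimated arrays were above the hardened ones but overlapped the controls, and replicate 1 was the lowest array of both treatments (1.27 ± 0.31, 2.41-fold, adjusted p = 0.00605). The call of na was lost when the compared arrays were fitted alone (1.06, adjusted p = 0.0653) and with normexp (0.24, adjusted p = 0.996). Ork1, an open rectifier potassium channel, had -1.94, -1.69 and -1.67, against -0.90, -1.19 and -1.25 in hardened flies (-0.66 ± 0.14, adjusted p = 0.00277), with no overlap between the groups.

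Synaptic and neuronal signalling genes likewise split 2 higher and 2 lower of 11, a share of 36.4% beside 24.9% over all genes. The serotonin receptor gene 5-HT7 had -5.05, -4.68 and -4.66 in acclimated flies, against -5.77, -5.48 and -5.43 in hardened flies and -5.62, -5.26 and -5.44 in controls, and its acclimated arrays were above all others (0.76 ± 0.16, adjusted p = 0.00204). Besides shi, the list held Caki, a synaptic scaffold kinase (-0.54 ± 0.13, adjusted p = 0.00764), and the kinase gene mnb (-0.55 ± 0.16, adjusted p = 0.0216), both lower. The call of mnb was lost without hardened replicate 1 or acclimated replicate 2 (-0.50 to -0.38, adjusted p up to 0.0997). Outside the list, 2 further genes act in neurons: hiw, a ubiquitin ligase of motor synapses, at -0.80 ± 0.14 (adjusted p = 0.00048), and hang, a nuclear zinc finger gene of ethanol tolerance, at -0.70 ± 0.17 (adjusted p = 0.00569). Levels of hiw were -5.71, -5.50 and -5.53 in acclimated flies, against -4.65, -4.92 and -4.78 in hardened flies, with a clear gap between the groups. Its difference was -0.55 with scaling on spike-in probes (adjusted p = 0.105) and -0.17 with normexp (adjusted p = 0.996), and its call was lost under both. With normexp, 5-HT7 stood at 0.22 and hang at -0.27.

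Courtship and sex determination genes were higher for 2 of 20, per and fru, and lower for 4, namely cac, ix, Btk29A and mle, shares of 10% and 20% beside 11.3% and 13.6% over all genes. The median was -0.12, and 0.13 with scaling on spike-in probes, under which 3 were higher and 1 lower. The transcription factor gene fru sets male courtship circuits (0.45 ± 0.13, adjusted p = 0.0195), and ix is a partner of the female doublesex protein (-0.65 ± 0.15, adjusted p = 0.00569). Levels of ix were -0.47, -0.98 and -0.81 in acclimated flies, against -0.00, -0.01 and -0.30 in hardened flies. Btk29A, a Tec-family tyrosine kinase, had 0.50, 0.29 and 0.39, against 1.34, 0.83 and 0.87 in hardened flies (-0.62 ± 0.14, adjusted p = 0.0039). Both genes had groups that did not overlap. The call of fru was lost without any 1 of 4 arrays, all but hardened replicate 2 and acclimated replicate 1 (0.39 to 0.43, adjusted p up to 0.0698).

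Insulin signalling and diapause genes were higher for 2 of 5 and lower for 0, a share of 40% beside 24.9% over all genes. With scaling on spike-in probes 1 was higher, with quantile normalization 2, and with median scaling or normexp 0 passed in limma. Thor encodes 4E-BP, a repressor of translation that insulin signalling restrains. Its levels were 3.99, 4.29 and 4.36 in acclimated flies, against 3.73, 4.02 and 3.66 in hardened flies and 3.33, 3.51 and 3.29 in controls. The treated groups overlapped by 1 array and both lay above the controls (0.41 ± 0.14, adjusted p = 0.0427), and against the controls the value was 0.84 after acclimation (adjusted p = 0.000322) and 0.43 after hardening (adjusted p = 0.218). The RNA-binding protein gene cpo, tied to diapause in D. melanogaster, had -1.93, -1.72 and -1.63 in acclimated flies, against -2.31, -2.12 and -2.02 in hardened flies, with all 13 probes pointing up (0.39 ± 0.13, adjusted p = 0.0406). The calls were lost without any 1 of 4 arrays, for cpo all but hardened replicate 3 and acclimated replicate 1 (0.31 to 0.40) and for Thor all but hardened replicate 2 and acclimated replicate 1 (0.34 to 0.37), with adjusted p up to 0.146. The insulin receptor gene InR had -0.46 (adjusted p = 0.0752).

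Immune and stress kinase genes were lower for 2 of 5 and higher for 0, a share of 40% beside 24.9% over all genes. The adaptor gene imd of the antibacterial pathway of that name had -0.20, -0.40 and -0.16 in acclimated flies, against 0.42, 0.45 and 0.36 in hardened flies and 0.28, 0.26 and 0.25 in controls. The 3 groups did not overlap, with hardened flies highest (-0.67 ± 0.13, adjusted p = 0.00106). The stress kinase gene p38a rests on 1 probe and had -0.56 ± 0.19 (adjusted p = 0.0376), with overlapping arrays. Its call was lost without hardened replicate 2 or 3 or acclimated replicate 1 (-0.54 to -0.34, adjusted p up to 0.173). With scaling on spike-in probes neither gene passed.

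Among the 4 cold candidates, hsr-omega and stv, described above, were higher and 0 were lower, beside 24.9% called over all genes. Frost, Fst, which is known to be induced on recovery from cold in D. melanogaster, had 0.71, 0.87 and 0.20 in acclimated flies, against -0.54, 0.18 and 0.14 in hardened flies and 0.42, -0.48 and 0.34 in controls. Its acclimated arrays lay just above the hardened ones, and the difference of 0.67 ± 0.27 did not pass (adjusted p = 0.0789). Dca, the gene of a calcium-binding protein, had 3.23, 3.68 and 3.29, against 3.38, 3.96 and 4.28 in hardened flies, which overlap (-0.47 ± 0.22, adjusted p = 0.126).

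Members of 3 further lists, for catecholamine and beta-alanine enzymes (7 genes), oxidative stress (3) and cytoskeleton and muscle (3), gave 0 calls in limma, with 2, 2 and 0 genes at an unadjusted p of 0.05. With scaling on spike-in probes the first of these lists gave 2 calls, both higher. The dopamine and melanin genes Ddc at -0.45 ± 0.16 (adjusted p = 0.0559) and y at 0.75 ± 0.28 (adjusted p = 0.0638) did not pass, while Ddc passed under 6 of 18 alternatives and y under 3. Ddc makes dopamine and serotonin, and its levels were -0.21, 0.13 and -0.27 in acclimated flies, against -0.01, 0.46 and 0.55 in hardened flies and 0.71, 0.65 and 0.61 in controls. The treated groups overlapped and both lay below the controls. Sod1 and Cat, which detoxify superoxide and peroxide, both had -0.33. In the fit of all 24 arrays described further on, the D. montana contrasts of Ddc and Sod1 passed (adjusted p = 0.0175 each). The muscle genes Mhc and sls had 0.32 and 0.31. Ubiquitin, ribosomal and other reference genes gave 1 call of 5, that of Gapdh1, a share of 20.0% beside 24.9% over all genes.

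Genes that stood in no list made up 78 of the 213, and 14 of them passed, beside 53 of all 213. Apart from the channel, photoreceptor and neuronal genes above, the largest changes were those of CG12030 and Rev1. CG12030 had 2.79, 2.70 and 2.78 in acclimated flies, against 3.70, 3.85 and 4.12 in hardened flies and 4.24, 4.31 and 4.28 in controls. The 3 groups were apart in that order (-1.13 ± 0.13, adjusted p = 7.06e-06). Rev1, a DNA polymerase that copies past lesions, had -2.55, -2.37 and -2.41, against -1.62, -1.64 and -1.60 in hardened flies and -1.54, -1.99 and -1.84 in controls. Its acclimated arrays were below all others (-0.82 ± 0.13, adjusted p = 0.00026). CG34366 was also lower, at -0.70 ± 0.15 (adjusted p = 0.00302), with 3 of its 4 probes down and 1 up.

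The calls rest on the mean over a gene's probes, so the sign of single probes is given as a description. Of the 53 genes, 4 rest on 1 probe, and of the other 49, 41 had all probes on one side of 0, as had 147 of the 198 genes with at least 2 probes (74.2%) among all genes tested. The 3 probes of hsr-omega lay between 2.65 and 2.78, and the 4 probes of desat1 between -1.66 and -1.52. Wider spreads were seen for Hsp67Bc, from -0.68 to 1.85, for cwo, from -0.53 to 0.90, and for CG34366, from -1.26 to 0.17. The cause of these spreads was not tested.

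**Figure D4:**
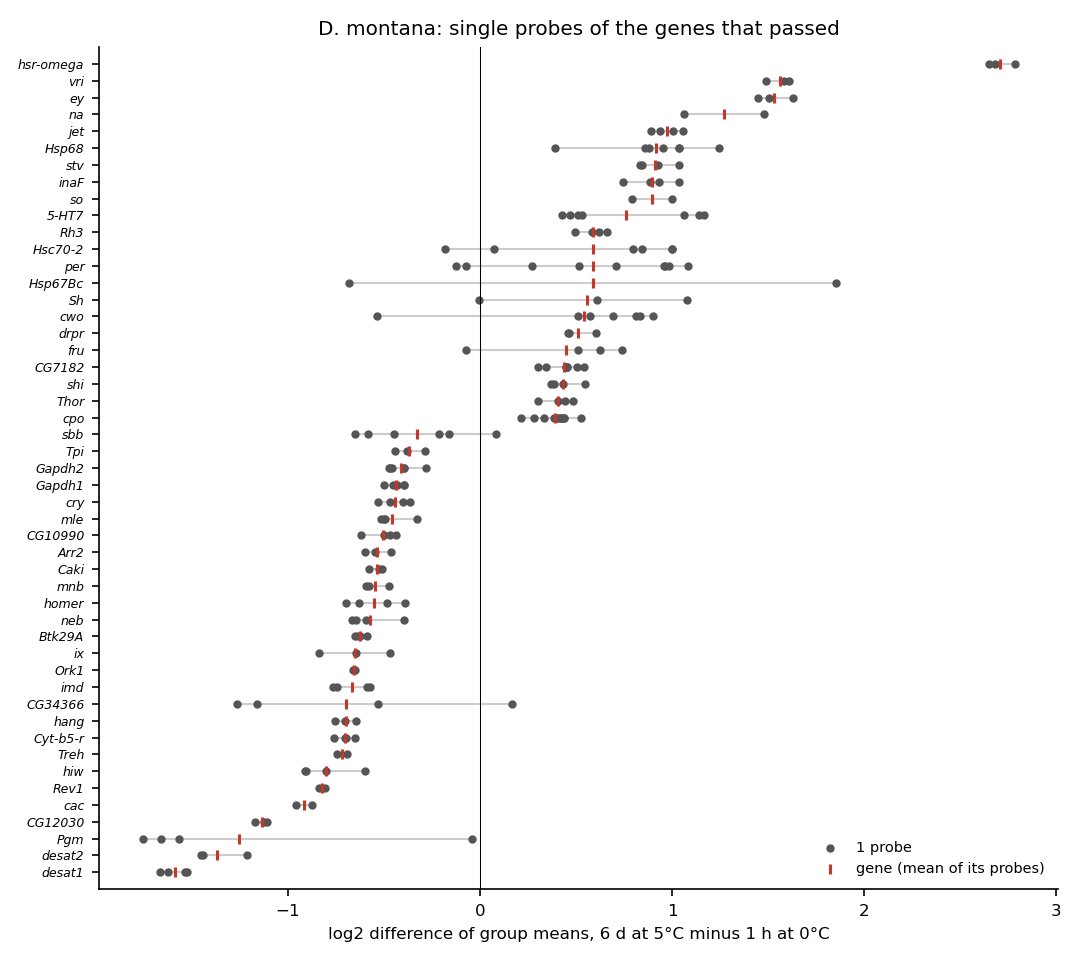
Log2 difference between acclimated and hardened group means for each probe (grey points) of the 49 genes that passed with at least 2 probes, with the gene's mean as a red tick. Probes of hsr-omega, vri, ey and desat1 lie close together, while those of Hsp67Bc, Pgm and CG34366 spread by more than 1 unit.

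The same contrast was measured in D. virilis, a related species that also had 3 acclimated and 3 hardened arrays, and the difference between the species was tested for 209 genes in 1 fit of all 24 arrays. The D. montana contrast minus that of D. virilis passed for 20 genes, or 9.57%, with 7 more positive in D. montana (3.35%) and 13 more positive in D. virilis (6.22%). In that fit, 72 genes differed between acclimated and hardened flies in D. montana (34.4%) and 50 in D. virilis (23.9%). The genes that passed in both, 17 higher and 12 lower in both, were 40.3% of the first list and 58.0% of the second, and 0 passed in opposite directions. The 72 genes stand beside 53 of 213 in the fit of the 15 D. montana arrays, whose spread was estimated without the D. virilis arrays. All probes carry D. montana names, and a poorer match to D. virilis RNA could shrink its differences, which was not tested.

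Among genes whose contrast was more negative in D. montana, desat1 differed by -1.59 in D. montana (-1.50, -1.67 and -1.59 on slides 1 to 3) and by -0.52 in D. virilis (-0.45, -0.85 and -0.27). The species difference was -1.06 ± 0.25 (adjusted p = 0.00965), and no slide of one species overlapped those of the other. That call was lost with both probe orientations averaged (-0.61, adjusted p = 0.112). Pgm showed the same order, with -1.25 in D. montana against -0.53 in D. virilis (species difference -0.73 ± 0.15, adjusted p = 0.00368). For hiw and Rev1, D. montana had -0.80 and -0.82, against 0.11 and -0.10 in D. virilis (species differences -0.91 ± 0.19 and -0.72 ± 0.16). With normexp background correction 0 of the 20 species differences passed in limma (9 genes at an unadjusted p of 0.05), and that of hiw turned to 0.33. The contrast of Hsp68 was instead more positive in D. montana, at 0.92 against 0.27 in D. virilis (0.64 ± 0.19, adjusted p = 0.0338). That call was lost without any 1 of 9 of the 12 compared arrays, all but replicate 1 of each D. montana treatment and hardened replicate 3 of D. virilis (0.55 to 0.68, adjusted p up to 0.094).

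Some further genes were higher after acclimation in both species but by less in D. montana, so their species difference was also negative. CG6785 was 0.55 in D. montana, with 1.33, 0.14 and 0.17 by slide, and 3.20 in D. virilis, with 3.33, 2.88 and 3.40. This was the largest species difference among the genes tested (-2.66 ± 0.24, adjusted p = 3.99e-08), on 1 probe. The dynamin gene shi had 0.43 in D. montana against 1.24 in D. virilis, and Hsp67Bc 0.59 and 1.33 in the same order. The contrast of 2 amine enzyme genes was more negative in D. virilis. Dat, an amine acetyltransferase, had -0.19 in D. montana against -1.34 in D. virilis (1.16 ± 0.21, adjusted p = 0.0019), and amd, a gene of the Ddc cluster, had 0.59 and -1.17 (1.76 ± 0.43, adjusted p = 0.0111). For hsr-omega, the contrast was 2.70 in D. montana against 2.85 in D. virilis, a species difference of -0.14 ± 0.21 (adjusted p = 0.785). With scaling on spike-in probes the species difference remained past the threshold for 4 of the 20 genes, CG6785, Dat, amd and Eip71CD. For ey the contrast was 1.53 in D. montana against 1.22 in D. virilis (0.31 ± 0.15, adjusted p = 0.233).

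**Figure D5:**
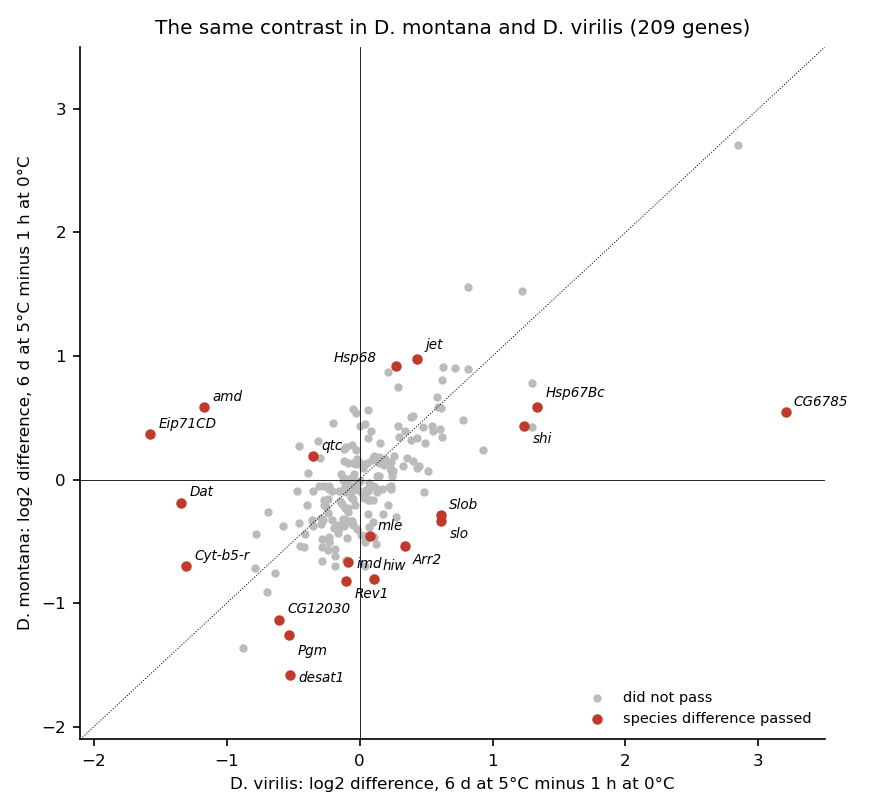
Log2 difference between acclimated and hardened flies in D. montana (vertical axis) and D. virilis (horizontal axis) for 209 genes, each point a gene and the dotted line equality; the 20 genes whose species difference passed in limma are red. The gene hsr-omega lies at the top near equality, and CG6785 stands far to the right of the line.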

How the data were processed

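Per the file headers, Agilent Feature Extraction 10.7.1.1 produced the Cy3 spot intensities that the authors deposited. Background had been subtracted in the processed signal, and no step had yet made arrays comparable. The authors also deposited a table of linear intensity values with columns of nearly equal medians (69.4 to 72.7). Its normalization and centring are not given in the sources used here. The submitters' processing notes list limma and do not say for which step. Its unnamed rows were taken as probes in name order (correlation with the arrays' log2 probe means 0.996 or more, and below 0 in file order) and used for an alternative only.

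Each array held 1850 probes of 8 spots, without controls, in 925 pairs of opposite orientation. Spots with outlier flags were left out, the log2 signals of a probe averaged, the array's 75th percentile over the probes subtracted, the brighter probe of each pair kept (median gap 4.65), and probes averaged by the gene name inside the probe name. Of 218 names, 169 match symbols of the RefSeq D. montana assembly ASM3504440v1, used for names only. Kept probes were well above background, in at least a 0.5 share of unflagged spots, on all arrays of at least 1 group, which left 213 genes (209 in both species). limma 3.58.1 (lmFit, eBayes) in R 4.3.3 was fitted to the 15 D. montana arrays, or to all 24 for the species difference, with Benjamini-Hochberg adjustment. On simulated data with 40 changed genes, 59.5% of changes of 0.5 and 97.0% of changes of 1 log2 unit were recovered among 213 genes for the D. montana contrast, and 36.0% and 89.0% among 209 genes for the species difference. The simulated noise was normal and independent, with each gene's own SD. It held no error of scaling or background, so these shares do not cover such errors.

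Per the labels, each replicate is a pool of flies of its own. For both treatments the replicate number is also the slide, and each of the 3 slides held 1 array of each. The deviations of same-numbered arrays from their group means correlated at 0.15, 0.13 and -0.01, so the numbers were not treated as pairs. The brighter-probe rule, the genes and the lists were chosen with earlier results of these data known. Genes named are the 15 largest rises and falls with groups that do not overlap, the 2 smallest p of each list and a set of well-known cold, clock and metabolic genes; for the species difference, the 5 largest in each direction. Other genes that passed are named for completeness, after their values were seen. Alternatives were other scalings (spike-in probes, median, quantile), normexp background correction (on the median signal, offset 50, since the files hold no mean signal), filters, both orientations, the median over probes, the compared arrays alone, the slide as a block, array weights, the authors' table and leaving out each array. Probe sequences and coordinates were not used here.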

Additional observations from a re-analysis of the deposited data

Results flagged for a closer look

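The 20 genes below were singled out because the difference between acclimated and hardened flies itself differed between D. montana and D. virilis in limma (adjusted p under 0.05 over 209 genes). All 20 had one direction on all 3 slides, which follows in large part from their selection on these same arrays. Values are log2 differences of D. montana minus D. virilis. They were more negative in D. montana for CG6785 (-2.66), desat1 (-1.06), slo (-0.95), hiw (-0.91), Slob (-0.90), Arr2 (-0.87), shi (-0.80), Hsp67Bc (-0.75), Pgm (-0.73), Rev1 (-0.72), imd (-0.58), mle (-0.53) and CG12030 (-0.53). They were more positive in D. montana for Eip71CD (1.94), amd (1.76), Dat (1.16), Hsp68 (0.64), Cyt-b5-r (0.61), qtc (0.54) and jet (0.54).

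For the potassium channel gene slo and its binding partner Slob, the contrast was -0.33 and -0.29 in D. montana and 0.61 and 0.61 in D. virilis. The species difference of slo was 0.25 with normexp, the opposite direction, and its call was also lost with spike-in scaling, quantile normalization and no filter on dim probes. That of hiw was 0.33 with normexp. Eip71CD had 0.37 in D. montana and -1.57 in D. virilis, with 0.71, 1.1 and -0.71 by slide in D. montana. Cyt-b5-r fell in both species, by 0.70 in D. montana (log2 difference -0.70) and by 1.31 in D. virilis (log2 difference -1.31). The jet gene was higher in both, at 0.97 in D. montana and 0.43 in D. virilis.

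Some of these calls were lost without 1 of the 12 compared arrays. That of Eip71CD was lost without D. montana acclimated replicate 2 or D. virilis hardened replicate 3 (1.53 to 1.73, adjusted p up to 0.0598). Those of imd and qtc were lost without either D. montana acclimated replicate 2 or D. virilis hardened replicate 3, and without D. virilis acclimated replicate 1 for imd (-0.54 to -0.50) or 2 for qtc (0.48 to 0.53). For slo, the arrays were hardened replicates 2 and 3 and acclimated replicate 1 of D. montana, and hardened replicate 3 and acclimated replicate 1 of D. virilis (-0.91 to -0.76). For Slob, they were replicates 2 and 3 of each D. montana treatment, and hardened replicate 3 and acclimated replicates 1 and 3 of D. virilis (-0.88 to -0.70). Arr2 lost its call without hardened replicate 2 or 3 or acclimated replicate 2 of D. montana, or without hardened replicate 3 or acclimated replicate 1 or 3 of D. virilis (-0.87 to -0.68). CG12030 lost it without hardened replicate 3 or acclimated replicate 2 of D. montana, or without hardened replicate 2 or 3 or acclimated replicate 1 or 3 of D. virilis (-0.52 to -0.41). The call of jet was lost without hardened replicate 2 or 3 or acclimated replicate 1 of D. montana, or without hardened replicate 2 or acclimated replicate 1 or 2 of D. virilis (0.48 to 0.55). For Cyt-b5-r, 4 arrays could be left out without losing the call, namely hardened replicate 2 and acclimated replicate 1 of D. montana and replicate 3 of each D. virilis treatment, and the other 8 could not (0.50 to 0.63, adjusted p up to 0.118).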

How the results depend on the processing

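For the D. montana contrast (53 genes), 0 of the 53 changed direction under any of 18 alternatives, and 4 (hsr-omega, Hsp68, stv and desat1) kept their call under all of them. The count was 37 with scaling on the 8 spike-in probes, 43 with median scaling, 56 with quantile normalization, 54 with the authors' deposited table and 37 to 46 without 1 array. It was 5 with normexp and 85 with array weights, whose estimation did not reach its convergence tolerance in either comparison, so that those counts are uncertain. Scaling on spike-in probes, whose mean log2 signal was 11.15 to 11.24 on acclimated and 11.06 to 11.80 on hardened arrays, moved the median of all genes to 0.18 from -0.06 and the share of higher calls to 86.5% from 45.3% (60.0% of 5 calls with normexp); 28 of its calls were among the 53. Under it 25 of the 53 lost their call, under normexp 48, and without at least 1 array 23. With the slide as a replicate block 60 genes passed, 52 of them among the 53, all but CG6785. When the compared arrays were fitted alone 46 genes passed, 40 of them among the 53. The 13 calls lost there were those of na, inaF, Rh3, Arr2, cpo, Thor, p38a, cry, CG6785, Sh, drpr, neb and sbb. For the species difference (20 genes), 4 passed with spike-in scaling, 45 with array weights (not converged), 32 with the authors' table, 20 with the replicate block and 12 to 23 without 1 array: 13 without D. montana hardened replicate 3, acclimated replicate 2 or D. virilis hardened replicate 3, and 12 without D. virilis acclimated replicate 1. With normexp 0 passed in limma (9 at an unadjusted p of 0.05). Higher shares of these calls were 35.0% in the main setting and 75% with spike-in scaling. Hsp83, -0.06 in the main setting, was 0.19 with spike-in scaling, 0.068 with quantile normalization, 0.16 with both orientations, 0.023 with array weights, 0.10 with the authors' table and -0.12 to 0.022 without 1 array (0.022 without acclimated replicate 1). With normexp the species difference was 0.25 for slo and 0.33 for hiw. The causes were not tested. Of 218 genes, 5 had no probe above background and were not tested; how signal over background bears on the lost calls was not tested either.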

Other observations

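Some genes that passed stand in no gene list and are not described above. Homer, a scaffold of the postsynaptic density, had -0.54, -0.69 and -0.42 in acclimated flies, against 0.19, -0.17 and -0.02 in hardened flies, with no overlap (-0.55 ± 0.14, adjusted p = 0.00846 in limma). CG10990 had 3.02, 2.89 and 3.01, against 3.56, 3.57 and 3.3 in hardened flies (-0.50 ± 0.13, adjusted p = 0.00758). The kinesin gene neb was lower (-0.57 ± 0.16, adjusted p = 0.0161), and the engulfment receptor gene drpr was higher with 1 overlapping array (0.51 ± 0.16, adjusted p = 0.0317). The calls of neb without hardened replicate 1 or acclimated replicate 2 or 3 (-0.48 to -0.46), and of drpr without any 1 of 4 arrays, all but hardened replicate 3 and acclimated replicate 1 (0.40 to 0.47), were lost. The transcription cofactor gene sbb was lower by the smallest amount of the 53 genes (log2 difference -0.33 ± 0.11, adjusted p = 0.0406), and its call was lost without any 1 of the 6 arrays (-0.38 to -0.27, adjusted p up to 0.137). The call of CG6785 in D. montana (0.55 ± 0.19, adjusted p = 0.0441) was lost without any 1 of 4 arrays, all but hardened replicates 2 and 3 (0.32 to 0.63, adjusted p up to 0.213), and with the slide as a replicate block (0.55, adjusted p = 0.0552).

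The level of pwn was not well above background on any of the 3 acclimated arrays but was on all 3 hardened arrays. Its difference of -0.33 did not pass (adjusted p = 0.232).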
